A study of Homo sapiens with 12 samples.

Results

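The 10 genes described here encode the first signalling steps of the B cell receptor: the receptor's signalling chains CD79A and CD79B, the tyrosine kinases LYN, SYK and BTK, the adaptor BLNK, the effectors PLCG2, PIK3CD and RASGRP3, and the tyrosine phosphatase PTPN6. They were chosen by name, as the rows of these symbols among the 57820 genes of the count table, and all 10 passed the filter on low counts. Their splice junctions, 197 of the 170723 in the junction table, were the ones that lie inside the same genes.

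RNA was sequenced from JVM3, HG3 and MEC1, human cell lines of chronic lymphocytic leukaemia, a tumour of mature B cells. Each line came with wild-type U1 or with the U1 g.3A>C mutation, and each of these 6 groups was sequenced as 2 technical replicates, 12 libraries in all. U1 is the small nuclear RNA that base-pairs with the 5′ splice site, where an intron begins. The labels do not say how the mutant U1 was brought into the cells, and nothing in the labels says that the 2 replicates of a group came from separate cultures, so p-values within a line measure technical spread only.

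Antigen binding to the receptor lets LYN, a Src family kinase, phosphorylate the tails of CD79A and CD79B, where SYK docks and becomes active. SYK phosphorylates BLNK, which gathers BTK and PLCG2, and phospholipase C gamma 2 then makes inositol trisphosphate, which releases calcium, and diacylglycerol, which recruits the RAS exchange factor RASGRP3. PIK3CD is the catalytic subunit of the leukocyte PI3 kinase, and PTPN6 (SHP-1) removes phosphate from proteins of the same chain. Chronic lymphocytic leukaemia cells depend on this pathway, and BTK, SYK and PIK3CD are drug targets in B cell tumours.

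Libraries held between 29880079 and 39716818 reads counted in genes. The 10 B cell markers summed to between 2010 and 2340 CPM (counts of a gene per 1000000 counts of the library, scaled by TMM factors) in the wild-type libraries and to between 1860 and 2260 in the mutant ones, led by MS4A1, and BACH2 alone stayed under 1 CPM in every library. Markers of T cells summed to at most 29.8 CPM, with CD3G and TRBC1 at 0 counts in all libraries and CD3D and CD3E under 1 CPM. ZAP70 led this list, at a mean of 9.79 CPM over the 12 libraries. The list's sum was highest in HG3, at 26.7 CPM with wild-type and 28.5 with mutant U1. Markers of monocytes and granulocytes summed to at most 15.3 CPM, led by ITGAM at a mean of 6.22 CPM, with CD14 and LYZ under 1 CPM. Those of stroma and epithelium summed to at most 7.03 CPM. The 6 plasma cell markers were all expressed and summed to between 1320 and 2070 CPM in wild-type and 1380 and 1830 CPM in mutant libraries. IRF4 alone had a mean of 1130 CPM over the 12 libraries, so it made up most of this sum. The NK cell list reached 108 CPM, in MEC1 with wild-type U1, where PRF1 leads it.

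Across the lines, 2 of the 10 genes passed the test between mutant and wild-type U1, and both fell: SYK and RASGRP3. The other 8 did not pass, and their differences lay between -0.33 and 0.08 on the log2 scale. Of all 21270 genes tested, 3.69% passed, and 1.86% passed with a lower level in the mutant. The test was edgeR's quasi-likelihood test on the summed technical replicates, 3 lines with each U1, with the line as a block and Benjamini-Hochberg adjusted p under 0.05. The median over the 10 genes was -0.18 (log2), against -0.01 over all genes tested. Other lists of B lineage genes in the same fit had medians as low or lower: -0.22 over the 10 B cell markers, 8 of them lower with mutant U1, and -0.32 over the 6 plasma cell markers, 5 of them lower. In bulk RNA, fewer transcripts per cell cannot be told apart from fewer cells that express a gene. When the 12 libraries were entered singly, 6 of the 10 passed, with or without a replicate block, in a fit in which technical replicates stand as replicates: CD79B, BTK, PLCG2 and PTPN6 joined, each with a lower level in the mutant. Of all genes, 31.2% passed in that fit and 23.9% with the block.

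**Figure D1:**
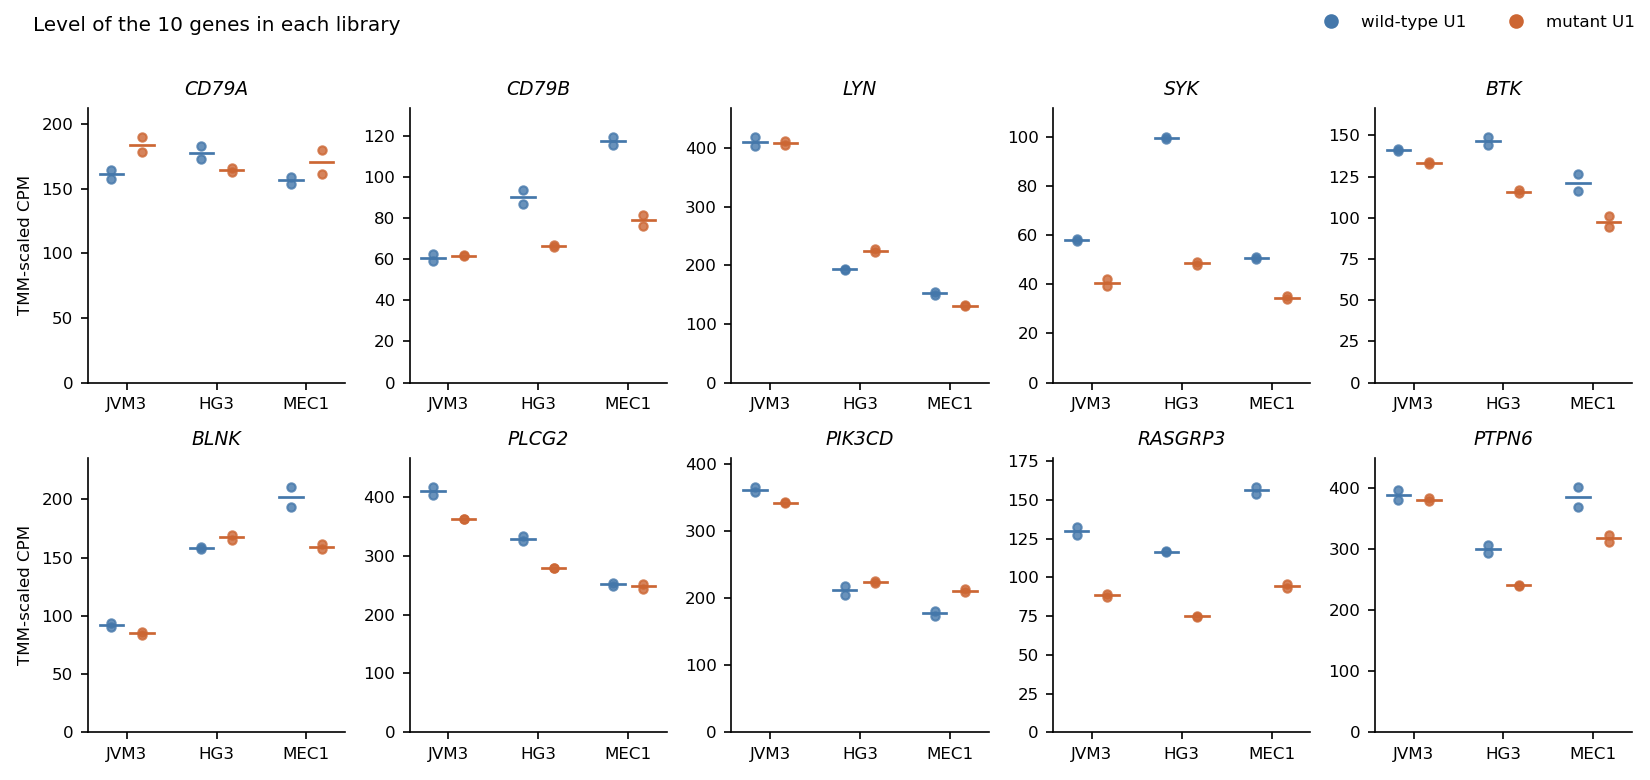
Each panel gives 1 gene; the vertical axis is its level in TMM-scaled CPM, from 0, points are single libraries and bars the mean of 2 technical replicates. SYK and RASGRP3 lie lower with mutant U1 in all 3 lines, SYK from 99.4 to 48.5 CPM in HG3.

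CD79A and CD79B carry the receptor's signal across the membrane. CD79A was at 164 and 157 CPM in JVM3 with wild-type U1 and at 190 and 178 with mutant U1. In HG3 it was at 183 and 173 against 166 and 163, and in MEC1 at 159 and 154 against 180 and 161. The mutant libraries were thus above the wild-type ones in JVM3 and MEC1 and below them in HG3, with no overlap within a line, and the difference across lines was 0.07 ± 0.09 on the log2 scale (SE over 3 lines, adjusted p = 0.719). Each line passed its own test (log2 0.19, -0.11 and 0.12 in JVM3, HG3 and MEC1; edgeR adjusted p = 0.00109, 0.0388 and 0.0229). The call was lost in JVM3 without replicate 1 of the mutant, in HG3 without either mutant library or replicate 1 of the wild type, and in MEC1 in DESeq2 and without replicate 1 of the mutant or replicate 2 of the wild type.

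CD79B differed more. In HG3 it went from 93.6 and 86.9 CPM with wild-type U1 to 66.0 and 67.0 with mutant U1, and in MEC1 from 119 and 116 to 81.6 and 76.3. In JVM3 the libraries overlapped, at 62.4 and 59.0 CPM against 62.2 and 61.4. The log2 difference was -0.44 in HG3 (adjusted p = 7.57e-11 in edgeR) and -0.57 in MEC1 (1.91e-14), and 0.03 in JVM3 (0.753). Across lines it was -0.33 ± 0.18 and did not pass (SE over 3 lines, adjusted p = 0.154), but it passed when no filter on low counts was applied.

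CD79A has a second 5′ splice site inside one of its coding exons, 114 bases before the usual one, and both splice to the same next exon. The stretch lies at chr19:42383246-42383359 (hg19, plus strand), on the line below in capitals as it stands in GENCODE 29 transcript CD79A-201, with 30 bases of each neighbouring stretch in lower case. It is shown because it is left out when the upstream site is used; it counts 38 codons.
CD79A-201: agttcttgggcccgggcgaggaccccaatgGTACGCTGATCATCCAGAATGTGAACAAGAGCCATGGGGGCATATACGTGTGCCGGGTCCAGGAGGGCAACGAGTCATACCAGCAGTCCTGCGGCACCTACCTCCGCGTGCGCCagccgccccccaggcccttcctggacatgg
The upstream splice site reads as follows, the last 3 exon bases in lower case and the first 6 intron bases in capitals.
CD79A upstream site: atgGTACGC
The upstream site, the one of transcript CD79A-202, took 13.8% of the 1280 reads at the shared acceptor in JVM3 with wild-type U1 (95% Wilson interval 12.1 to 15.8) and 15.5% of 1602 with mutant U1 (13.9 to 17.4). In HG3 it took 9.90% (8.48 to 11.5) against 13.7% (11.98 to 15.62), and in MEC1 13.3% (11.6 to 15.2) against 17.4% (15.7 to 19.3). Its share was higher with mutant U1 in all 3 lines, by 3.22 ± 1.32 percentage points (SD, n = 3 lines), but the intervals overlapped in JVM3 and the test across lines was not passed (adjusted p = 0.276).

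In CD79B an exon that transcript CD79B-202 lacks was skipped by 24.4% of acceptor reads in JVM3 with wild-type U1 and 20.6% with mutant U1, by 14.7% and 12.2% in HG3, and by 16.0% and 19.3% in MEC1. The change was -1.02 ± 3.79 points (SD over 3 lines) and had no common direction (adjusted p = 1.0).

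Among the kinases, SYK fell and LYN and BTK did not pass. SYK, the kinase that turns receptor phosphorylation into a downstream signal, was at 57.4 and 58.3 CPM in JVM3 with wild-type U1 and at 39.1 and 41.9 with mutant U1. HG3 had 99.7 and 99.1 CPM against 47.9 and 49.2, and MEC1 50.3 and 51.2 against 33.9 and 35.1. All mutant libraries lay below the wild-type libraries of their own line, and the mutant level was 0.701, 0.488 and 0.680 of the wild-type level in JVM3, HG3 and MEC1. The log2 difference across lines was -0.71 ± 0.17 (SE over 3 lines, edgeR adjusted p = 0.0178), and it was passed in each of 20 alternative fits, with adjusted p between 2.34e-10 and 0.0479. Reads of SYK's splice junctions, counted by the authors in a separate table of the same libraries, gave log2 ratios of -0.585, -0.996 and -0.336 as shares of all junction reads in JVM3, HG3 and MEC1.

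The size of SYK's difference varied between the lines (edgeR interaction test, adjusted p = 1.68e-08), in a test that sees technical spread only. In HG3, the line with the highest level of SYK with wild-type U1, the difference was -1.03, against -0.51 in JVM3 and -0.56 in MEC1. With mutant U1 the 3 lines were closer to each other, at 40.5, 48.5 and 34.5 CPM, than with wild-type U1, at 57.9, 99.4 and 50.8 CPM.

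SYK starts from several first exons, which all splice to one acceptor at position 93606140 of chromosome 9 (hg19). Reads there numbered between 46 and 126 in a column, so the shares are wide. The first exon of transcripts SYK-203 and SYK-204 held 68.6% of them in JVM3 with wild-type U1 and 75.0% with mutant U1, 51.6% and 44.7% in HG3, and 60.9% and 54.9% in MEC1. The downstream first exon, of transcript SYK-201, held 42.1% (95% Wilson interval 33.8 to 50.8) and 48.7% (37.8 to 59.7) in HG3, 25.5% (15.5 to 38.9) and 18.8% (10.2 to 31.9) in JVM3, and in MEC1 0 of 46 reads, which allows a share of up to 6.52%, and 9.80% (4.26 to 20.98). A further first exon, of transcript SYK-205, took 39.1% and 35.3% in MEC1 and between 5.88% and 6.58% in the other lines. The shares differed between the lines, which was not tested. Their mean changes with mutant U1 were at most 3.23 points in size and none passed (adjusted p = 1.0 for each of the 3 junctions). These means average changes of opposite sign: the share of SYK-201 was higher with mutant U1 in HG3 and MEC1 and lower in JVM3. At this depth the test cannot show that the choice was unchanged.

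The 250 bases before 2 of the RefSeq starts of SYK (GRCh38.p14, plus strand) are shown because the first exons that follow them were used so unequally by the lines. The first printed window ends before the most upstream of the 3 RefSeq starts, at position 90801600 of chromosome 9, which lies 187 bases from the start of SYK-203. The second printed window ends before the start at 90827420, which lies 68 bases from that of SYK-201. The RefSeq start nearest to SYK-203 is the middle one, at 90801819, 32 bases away; its window is described but not printed, because it reaches past the start at 90801600 into sequence that may be untranslated exon.
SYK upstream start: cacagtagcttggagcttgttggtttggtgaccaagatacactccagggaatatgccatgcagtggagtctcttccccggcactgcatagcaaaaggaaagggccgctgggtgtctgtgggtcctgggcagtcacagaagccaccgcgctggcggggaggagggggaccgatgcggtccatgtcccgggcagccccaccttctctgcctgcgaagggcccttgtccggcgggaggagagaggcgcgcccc
SYK downstream start: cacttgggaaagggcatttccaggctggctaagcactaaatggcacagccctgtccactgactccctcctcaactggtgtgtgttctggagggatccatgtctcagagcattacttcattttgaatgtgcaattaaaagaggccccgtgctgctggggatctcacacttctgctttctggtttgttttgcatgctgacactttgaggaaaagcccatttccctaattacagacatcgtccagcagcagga
The window before 90801600 is 64.0% G or C and holds 13 CpG dinucleotides, and 53.4% of the 34788 RefSeq promoter windows of this length hold fewer. That before 90801819 is 75.6% G or C and holds 32 CpG, and 90.5% of windows hold fewer. The downstream window is 49.2% G or C and holds 2 CpG, and 14.7% of windows hold fewer. Searched on both strands, the window before 90801819 held 2 of 4 motifs, the GC box and the PU.1 core, and the printed windows held none. The motifs were the GC box GGGCGG (held by 42.6% of all windows), the TATA box TATAAA (10.8%), the PU.1 core GAGGAAGT (2.18%) and the octamer ATTTGCAT (1.62%).

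LYN, the Src family kinase that starts the signal, showed opposite differences in 2 of the lines. It was at 194 and 193 CPM in HG3 with wild-type U1 and at 227 and 223 with mutant U1, and in MEC1 at 155 and 149 against 130 and 132. In JVM3 the libraries overlapped, at 418 and 404 against 404 and 412. The log2 differences were 0.22 in HG3 and -0.21 in MEC1, each past the within-line test (edgeR adjusted p = 2.41e-06 and 5.44e-06), and -0.01 in JVM3. Across lines the difference was 0.00 ± 0.12 (SE, adjusted p = 0.988). The 2 splice sites that separate LYN's longer and shorter forms, 63 bases apart, showed no change past the test: the upstream site took between 32.0% and 41.6% of acceptor reads in the 6 columns, and its mean change was -0.58 ± 2.22 points (SD over 3 lines, adjusted p = 1.0).

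BTK, the kinase that activates phospholipase C gamma 2, was lower with mutant U1 in all 3 lines but did not pass across them. In HG3 it was at 149 and 144 CPM with wild-type U1 and 117 and 115 with mutant U1, in MEC1 at 116 and 127 against 101 and 94.1, and in JVM3 at 142 and 140 against 134 and 132. The ranges did not overlap in any line. The log2 difference was -0.25 ± 0.08 across lines (SE, adjusted p = 0.132), -0.34 in HG3, -0.31 in MEC1 and -0.08 in JVM3, where the within-line test was not passed (adjusted p = 0.164). None of its 21 listed junctions had a competing junction deep enough at the same acceptor to be tested.

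**Figure D2:**
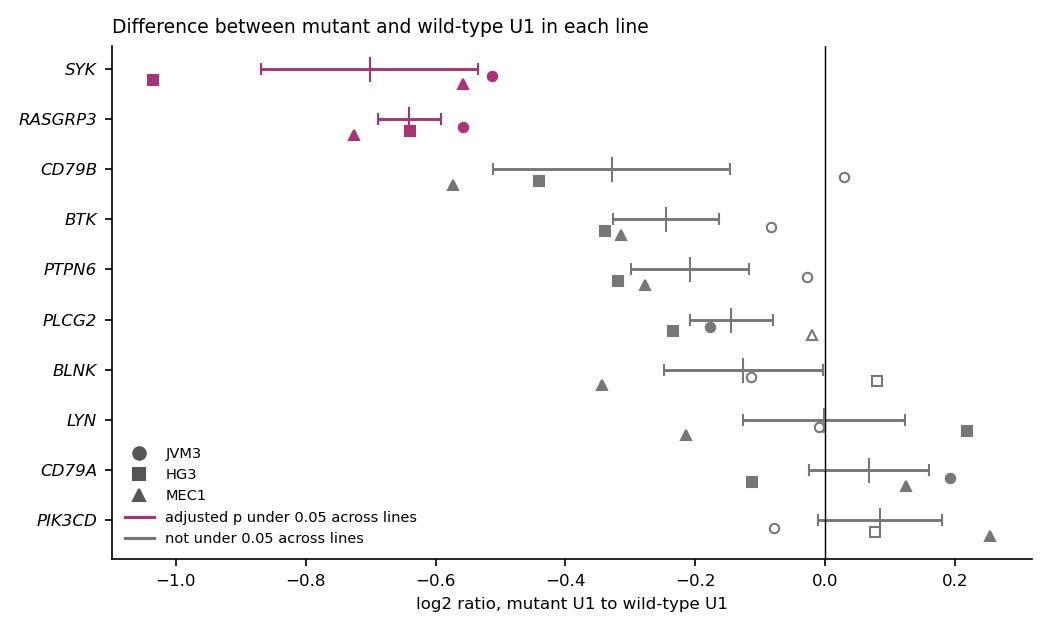
Log2 ratio of mutant to wild-type U1 for each gene: the vertical tick and bar give the mean and SE over the 3 lines, and the symbols below give each line, filled where the within-line test was passed. SYK and RASGRP3 are the only 2 of the 10 that passed across lines, and LYN has lines on both sides of 0.

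BLNK (SLP-65), the adaptor that SYK phosphorylates, did not pass as a gene but had the one junction of the 10 genes that did. A coding exon of 69 bases, 23 codons, was skipped more often with mutant U1 in every line. The exon lies at chr10:97975077-97975145 (hg19, minus strand) and is part of transcript BLNK-201, while BLNK-202 joins its neighbours directly. The 2 forms are printed around the exon, the exon in capitals with 30 bases of the neighbouring exons in lower case.
BLNK-201: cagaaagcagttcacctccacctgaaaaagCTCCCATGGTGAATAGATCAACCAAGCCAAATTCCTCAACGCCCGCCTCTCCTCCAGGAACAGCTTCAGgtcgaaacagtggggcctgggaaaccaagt
BLNK-202: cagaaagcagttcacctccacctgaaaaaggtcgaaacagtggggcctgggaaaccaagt
The 5′ splice site before the exon, which both forms use, is held by the retained-intron transcript BLNK-207, here with the 6 intron bases in capitals.
BLNK shared site: aagGTAAGA
The exon itself ends in the bases CAG; the intron bases after it are not analysed here.

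Reads that skipped the exon made up 27.2% of acceptor reads in JVM3 with wild-type U1 (100 of 368 reads, 95% Wilson interval 22.9 to 31.9) and 41.8% with mutant U1 (170 of 407, 37.1 to 46.6). In HG3 the share went from 13.9% (87 of 628, 11.4 to 16.8) to 35.1% (258 of 734, 31.8 to 38.7). In MEC1 it went from 18.7% (152 of 814, 16.1 to 21.5) to 43.0% (363 of 844, 39.7 to 46.4). The intervals did not overlap within any line, and all 3 mutant columns lay above all 3 wild-type columns. The intervals cover counting error only.

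The mean change was 20.1 ± 4.98 percentage points (SD, n = 3 lines; edgeR's junction test adjusted p = 0.000316). Of 48 junctions tested in the 10 genes this was the 1 that passed, against 2.78% of the 35863 junctions tested in all. The competing junction, which leads out of the exon to the same acceptor, had the mirror change of -20.1 points but did not pass itself (adjusted p = 0.158). The skipping junction was passed in all alternatives but one: in limma on log ratios its adjusted p was 0.175. As a share of all junction reads, skipping reads were 1.47, 3.02 and 2.26 times as many with mutant U1 in JVM3, HG3 and MEC1. Reads into the exon were at 0.800, 0.820 and 0.647 of their wild-type level.

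**Figure D3:**
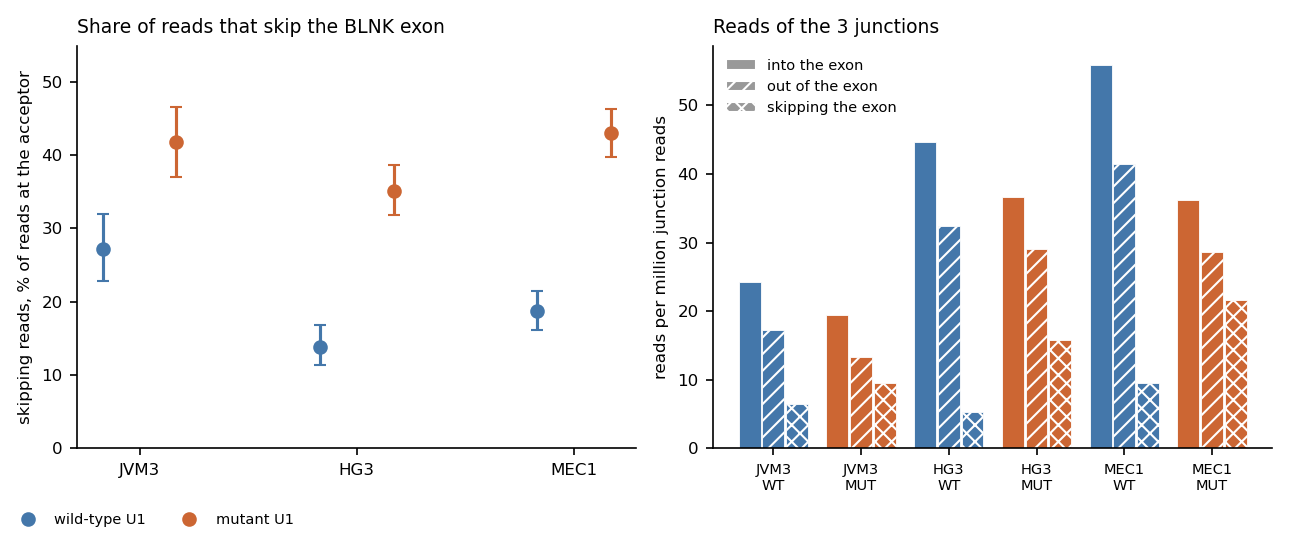
Left, reads that skip the 69-base BLNK exon as a percent of reads at the acceptor, with 95% Wilson intervals, in the 6 pooled columns; right, reads of the 3 junctions around the exon, scaled to reads of all junctions in the column. The share rises from between 13.9 and 27.2% with wild-type U1 to between 35.1 and 43.0% with mutant U1.

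The gene count of BLNK did not pass across lines. It was at 90.7 and 93.6 CPM in JVM3 with wild-type U1 and 84.0 and 86.4 with mutant U1, in HG3 at 159 and 158 against 169 and 165, and in MEC1 at 194 and 211 against 157 and 161. MEC1 was lower with mutant U1 (log2 -0.34, edgeR adjusted p = 1.15e-09), while JVM3 and HG3 did not pass (adjusted p = 0.0507 and 0.119); JVM3 passed when either library of wild-type HG3 or any one library of MEC1 was left out of the shared fit. With a replicate block both passed, in opposite directions (log2 -0.11 and 0.08, adjusted p = 0.0121 and 0.0448). Across lines the difference was -0.13 ± 0.12 (SE, adjusted p = 0.468). The other tested pair of BLNK junctions, at position 97990590, changed by 0.43 points. The deepest junction of the 10 genes with no match in GENCODE 29 was also in BLNK, from 98006805 to 98031109 with 3749 reads, and 1 of its ends lay 1 base from an annotated exon edge.

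Of the 3 effectors, RASGRP3 fell in every line and PLCG2 and PIK3CD did not pass across lines. RASGRP3, which loads RAS with GTP when diacylglycerol is made, was at 128 and 132 CPM in JVM3 with wild-type U1 and at 87.3 and 89.5 with mutant U1. HG3 had 117 and 116 CPM against 74.4 and 75.4, and MEC1 154 and 158 against 93.2 and 95.7. All 6 mutant libraries lay below all 6 wild-type libraries, whatever the line. The mutant level was 0.680, 0.642 and 0.605 of the wild-type level in JVM3, HG3 and MEC1, a log2 difference of -0.64 ± 0.05 across lines (SE, edgeR adjusted p = 0.00584). It was passed in each of 20 alternative fits, with adjusted p between 7.96e-10 and 0.0332.

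RASGRP3 was the one gene of the 10 that did not pass the test of a difference in response between lines (edgeR interaction test, adjusted p = 0.0583). That test sees technical spread only, and the other 9 passed it, as did 32.0% of all genes. With a replicate block RASGRP3 passed too (adjusted p = 0.0160), as it did without replicate 2 of wild-type HG3 or replicate 1 of wild-type MEC1. Junction reads gave log2 ratios of -0.53, -0.62 and -0.69 as shares of all junction reads in JVM3, HG3 and MEC1. Its 5 tested junctions changed by at most 1.59 points (position 33764390 to 33768579, not in GENCODE 29) and -1.46 points (33764277 to the same acceptor), and none passed.

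Of the reads at RASGRP3's acceptor at position 33736777 of chromosome 2 (hg19), between 97.2% and 99.7% came from one first exon in all 6 columns. That is the first exon of transcripts RASGRP3-202, RASGRP3-205 and RASGRP3-214. A gene annotated on the other strand overlaps RASGRP3 in GENCODE 29, as ZNF518A does BLNK and SNORA1B and RN7SL798P do LYN. On the same strand, AC127029.3 overlaps CD79B, AC018607.1 overlaps LYN, and AC099524.1 and RN7SKP176 overlap PLCG2. What these overlaps do to the counts was not tested.

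PLCG2, phospholipase C gamma 2, was at 416 and 403 CPM in JVM3 with wild-type U1 and 362 and 362 with mutant U1, and in HG3 at 333 and 324 against 279 and 280. In MEC1 the libraries overlapped, at 254 and 249 against 244 and 252. The log2 difference was -0.18, -0.24 and -0.02 in JVM3, HG3 and MEC1, and -0.15 ± 0.06 across lines (SE, adjusted p = 0.332). An upstream exon of transcript PLCG2-214 took 11.7% of reads at its acceptor in JVM3 with wild-type U1 and 14.5% with mutant U1, 5.92% and 8.84% in HG3, and 3.46% and 5.01% in MEC1, a change of 2.43 ± 0.76 points that did not pass (adjusted p = 0.863).

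PIK3CD, the PI3 kinase subunit, was at 181 and 174 CPM in MEC1 with wild-type U1 and 214 and 209 with mutant U1. In HG3 it was at 219 and 206 against 223 and 225, and in JVM3 at 366 and 358 against 343 and 342. The libraries did not overlap in any line, but the direction in JVM3 was opposite, and only MEC1 passed within the line (log2 0.25, edgeR adjusted p = 2.18e-07), though HG3 passed without replicate 1 of its wild type. With a replicate block JVM3 and HG3 also passed (log2 -0.08 and 0.08, adjusted p = 0.0365 and 0.0341). Across lines the difference was 0.08 ± 0.10 (SE, adjusted p = 0.652). PIK3CD-AS1, PIK3CD-AS2 and CLSTN1 overlap it on the other strand in GENCODE 29, and no source used here says whether reads were counted by strand.

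The junctions of PIK3CD moved most after that of BLNK. A junction of chromosome 1 from position 9711860 to 9770482 (hg19), which GENCODE 29 does not hold, passes over the exon at 9751525. It took 10.4% of acceptor reads in JVM3 with wild-type U1 and 18.5% with mutant U1, 13.3% and 18.7% in HG3, and 8.07% and 13.7% in MEC1. The change was 6.39 ± 1.5 points and had the same sign in all 3 lines, but was not passed (adjusted p = 0.102). The junction that uses that exon, from 9751629 to the same acceptor, went from 68.7% to 57.6%, from 69.0% to 59.7% and from 74.4% to 63.4%, a change of -10.5 ± 1.05 points (adjusted p = 0.740). A mean change of -11.4 ± 10.3 points at the acceptor 9770163 rested on between 10 and 43 acceptor reads in a column and spread widely between lines (adjusted p = 1.0). These shares are of all reads at the acceptor, while the test used junctions of at least 20 reads only. Over those junctions the 3 mean changes were 6.48, -10.22 and -10.17 points, in the order given.

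**Figure D4:**
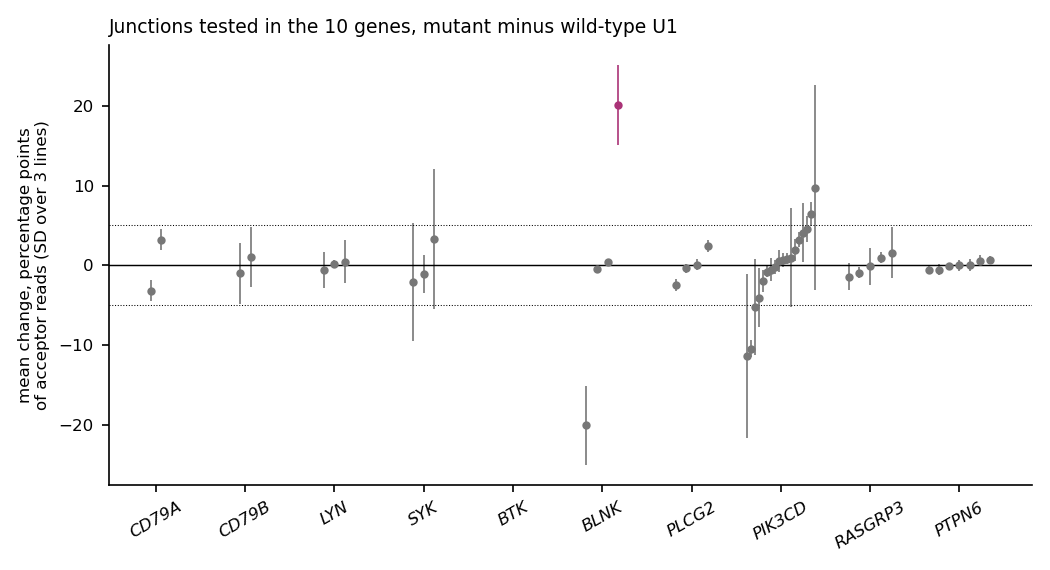
Mean change in percent of acceptor reads, mutant minus wild-type U1, of the 48 junctions tested, with the SD over 3 lines; dotted lines mark 5 points either way. The BLNK skipping junction, at 20.1 points, is the one that passed; BTK has no junction that could be tested.

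PTPN6 (SHP-1), the phosphatase of the group, was lower with mutant U1 in HG3, from 307 and 293 CPM to 242 and 240, and in MEC1, from 401 and 368 to 323 and 311. In JVM3 the libraries overlapped, at 397 and 379 against 378 and 383. The log2 differences were -0.32, -0.28 and -0.03, and -0.21 ± 0.09 across lines (SE, adjusted p = 0.205). Its 7 tested junctions changed by at most 0.62 points.

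Within single lines, 4 of the 10 genes passed in JVM3 (1 higher, 3 lower with mutant U1), against 22.4% of all genes. In HG3 8 passed (1 higher, 7 lower), against 38.3% of all genes, and in MEC1 9 (2 higher, 7 lower), against 36.6%. With a replicate block these counts became 6, 10 and 9, against 27.1%, 41.7% and 40.4% of all genes. These tests see only technical spread, and they count small differences such as the -0.11 of CD79A in HG3. The 10 genes held between 1184 and 15036 counts in a library, while all genes tested reach down to the filter on low counts. The shares were not matched for this depth.

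The wild-type lines differed in the levels of 3 of the genes by at least 2-fold at an adjusted p under 0.05. The 2 libraries of a line are technical replicates, so these p-values measure technical spread only. LYN was lower in HG3 (log2 -1.09) and in MEC1 (-1.43) than in JVM3, BLNK was higher in MEC1 than in JVM3 (1.13), and PIK3CD was lower in MEC1 than in JVM3 (-1.03). That is 1 of 10 for HG3 against JVM3, where 28.4% of all genes passed, 3 of 10 for MEC1 against JVM3, where 38.5% passed, and 0 of 10 for MEC1 against HG3, where 33.3% passed; in DESeq2 that last count was also 0, and all 10 had an adjusted p under 0.05 there with smaller folds. CD79A varied least, with a highest wild-type line 1.14 times the lowest, and LYN most, at 2.70 times.

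Per kilobase of exon, CD79A had the highest value of the 10 in every group, between 104 and 122 CPM per kilobase, and PTPN6 came second, between 48.0 and 77.5. The length was that of the merged exons of all GENCODE 29 transcripts of a gene, 11118 bases for RASGRP3 and 2080 for CD79B. The order depends on this length. In CPM alone, RASGRP3 stood above CD79B, at means of 134 and 89.5 over the wild-type lines. SYK and RASGRP3 were the lowest pair in every group, SYK between 6.62 and 19.1 and RASGRP3 between 6.74 and 14.0. SYK and RASGRP3 differed little in JVM3, at 11.1 and 11.7 CPM per kilobase with wild-type U1 and 7.78 and 7.95 with mutant U1. Only CD79A and PTPN6 stood above LYN in JVM3, where it was at 66.4 with wild-type U1, while in MEC1 it was at 24.6, below all but PLCG2, RASGRP3 and SYK. CD79B and BLNK stood nearly level with wild-type U1 in the other lines, at 43.4 and 43.3 in HG3 and 56.5 and 55.3 in MEC1.

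The genes whose level went most closely with RASGRP3 over the 12 libraries were NEMP2, SDR39U1 and RHBDD1, with Pearson r of 0.984, 0.982 and 0.981. Those closest to SYK were DOCK8, FLVCR1 and NCOA2, with r of 0.985, 0.973 and 0.973. These are descriptions over 12 libraries of 3 lines, among 9529 genes with a mean log2 CPM of at least 3, and technical replicates share their source.

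Around these 10 genes, 10 lists of other pathway genes were read from the same fit. Of their 144 tested genes 2 rose, 5 fell and 137 did not pass. Thus 4.86% of them passed, against 3.69% of all genes tested. The median log2 difference was -0.06, against -0.01 over all genes. Of the co-receptors and surface modulators 3 of 14 fell, none rose, and the list's median was -0.26. The share that fell was 21.4%, against 1.86% of all genes tested. PTPRC (CD45), the phosphatase that keeps Src kinases active, fell by 0.60 on the log2 scale (SE 0.15, edgeR adjusted p = 0.0223), CD37, a tetraspanin, by 0.58 (SE 0.15, 0.0251), and CD180, a Toll-like receptor homologue, by 1.18 (SE 0.30, 0.0274) from a low level of 3.85 ± 3.81 CPM (SD over lines). PTPRC did not pass without JVM3 or HG3 (adjusted p = 0.0819 and 0.0531), CD37 not without HG3 or MEC1 (0.0670 and 0.0787), and CD180 not without any one of the lines (0.0562 to 0.0636).

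Among the immunoglobulin chains that bind antigen, 1 of 9 fell and none rose, while 1.86% of all genes tested fell. The 1 was IGHD, the delta heavy chain, which fell by 0.93 (SE 0.21, edgeR adjusted p = 0.0151) and passed in all 20 alternative fits. The mu chain IGHM was at -0.30 (adjusted p = 0.0964), and the list's median was -0.16. IGLC2, IGLC3 and IGHG genes are near-identical copies, so reads that do not align uniquely can be missing from their counts. The plasma cell marker JCHAIN, which joins immunoglobulin chains, also fell, by 0.75 (SE 0.07, adjusted p = 0.00560), and TNFRSF17 (BCMA) by 0.41 (SE 0.08, 0.0436), the latter not without any one of the lines (0.0711 to 0.156). Their part in the results on the 10 genes was not tested.

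**Figure D5:**
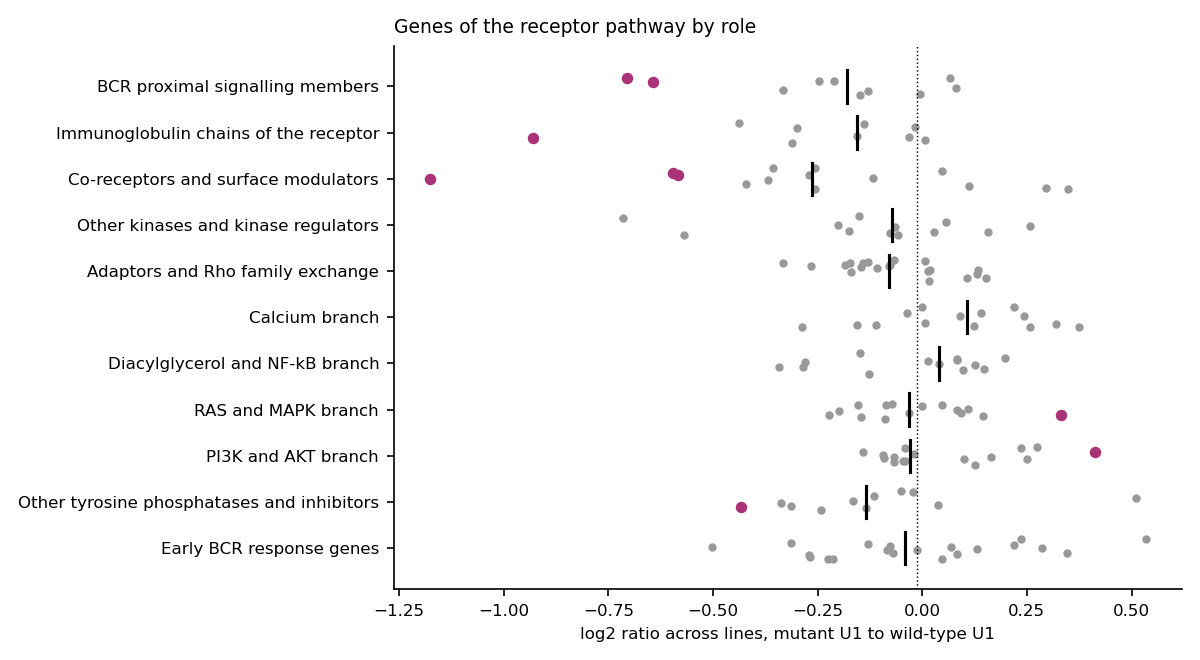
Log2 ratio across lines of each tested gene in the lists, 1 point a gene, with the list's median as a black bar and the median of all genes as a dotted line; coloured points passed the test. The co-receptor list has its median at -0.26 and holds 3 of the 5 genes outside the 10 that fell.

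Further down the pathway, 6.67% of the RAS and MAPK branch passed, 6.25% of the PI3K and AKT branch and 9.09% of the other phosphatases and inhibitors. Each of these shares rests on 1 gene, and 3.69% of all genes tested passed. In the RAS and MAPK branch 1 of 15 rose, MAP2K2 (MEK2), by 0.33 (SE 0.04, edgeR adjusted p = 0.0488). In the PI3K and AKT branch 1 of 16 rose, PIK3R5, the regulatory subunit of PI3K gamma, by 0.41 (SE 0.12, adjusted p = 0.04996). Of the other tyrosine phosphatases and inhibitors 1 of 11 fell, PTPN18, by 0.43 (SE 0.10, adjusted p = 0.0468). None of the 3 passed without any one of the lines, with adjusted p between 0.0654 and 0.201. MAP2K2 also did not pass without replicate 1 of mutant JVM3 or of mutant MEC1, nor PTPN18 without replicate 2 of mutant or replicate 1 of wild-type JVM3.

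In the other 5 lists no gene passed. The lowest p among the other kinases and their regulators belonged to PTPRO (log2 -0.71, adjusted p = 0.113) and FGR (-0.20, 0.173), and among the adaptors and exchange factors to DOCK2 (-0.33, 0.0617) and DOK3 (-0.27, 0.118). In the calcium branch they belonged to PLCG1 (0.37, 0.0639) and STIM1 (0.26, 0.110), and in the diacylglycerol and NF-kB branch to PRKCB (-0.34, 0.0521) and IKBKB (-0.28, 0.0923). Of the 20 tested genes whose RNA is known to rise after receptor stimulation 0 passed, 5 had an unadjusted p under 0.05, and the median was -0.04; CD69 (-0.50, adjusted p = 0.0845) and DUSP5 (-0.31, 0.0887) had the lowest p. The unadjusted p was under 0.05 for 2 of 12 genes among the kinases, 2 of 20 adaptors, 2 of 14 calcium genes and 3 of 13 in the diacylglycerol branch, against 21.8% of all genes.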

How the data were processed

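Total RNA, ribodepleted and prepared as stranded libraries per the labels' protocols, was sequenced from 12 libraries. The authors deposited 1 table of raw read counts per gene and 1 table of junction read counts with a single column for each line and U1 status; the submitters' processing notes name STAR 2.5.4b, HTSeq 0.9.1 and the hg19 (GRCh37) build, and no source used here says whether reads were counted by strand. Rows that name no gene were left out. As shares of all counts with these rows included, no feature held 17.72 to 24.93% and alignments that were not unique 29.02 to 34.92%. Ambiguous reads held 0.90 to 1.06%. The junction table lists junctions in clusters of competing junctions only, and its columns hold 15537369 to 17917160 reads.

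Counts were tested with edgeR 4.0.16 (TMM, filterByExpr over the 12 libraries, robust quasi-likelihood), all p-values adjusted by Benjamini-Hochberg over the 21270 genes kept. Across lines, technical replicates were summed and the line was a block; within lines, between wild-type lines (called at a fold of at least 2) and for the interaction, the 12 libraries were fitted as 6 groups. CPM are TMM-scaled. Junctions of at least 20 reads that share an acceptor were tested with edgeR's diffSpliceDGE over the 6 columns and called at a change of at least 5 points with the same sign in each line. Members' junctions were placed by matching intron lengths and spacing to GENCODE 29, with no conversion of coordinates; unmatched junctions may be annotated ones that the builds place differently. Both scripts were tested on simulated data. The replicates differ by more than counting noise. Same-numbered replicates of mutant and wild type deviated together (correlation 0.131 in JVM3, 0.110 in HG3 and 0.398 in MEC1), and so did those of different lines (0.068 to 0.371), so a replicate block was fitted as an alternative. DESeq2 1.42.0, limma 3.58.1 and other filters, scalings and left-out libraries or lines were the other alternatives.

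The 10 genes and the lists were chosen with earlier results of these data known. All 10 are named; of each other list the genes that passed, at most 4, or else the 2 lowest p; for genes that passed, the 3 most correlated genes; in each gene the called junctions and the 2 with the largest change among those tested. Of the list genes, 5 of 151 pathway genes had no row in the table. Sequences are from GENCODE 29 transcripts and RefSeq promoter windows (GRCh38.p14).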

Additional observations from a re-analysis of the deposited data

Results flagged for a closer look

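For 9 of the 10 genes the difference between mutant and wild-type U1 varied between the 3 lines by edgeR's interaction test, against 32.0% of all genes, and technical replicates are the only spread this test sees. The 10 genes and all genes were not matched for read depth. The adjusted p was 9.21e-10 for CD79B, 1.68e-08 for SYK, 2.01e-08 for LYN, 2.77e-07 for BLNK, 5.53e-06 for PIK3CD, 3.26e-05 for PTPN6, 0.000360 for CD79A, 0.000788 for BTK and 0.00143 for PLCG2. For LYN (HG3 0.22, MEC1 -0.21) and CD79A (JVM3 0.19, HG3 -0.11) lines with opposite signs on the log2 scale each passed the within-line test. Signs also differed for BLNK (HG3 0.08, MEC1 -0.34), CD79B (JVM3 0.03, MEC1 -0.57) and PIK3CD (JVM3 -0.08, MEC1 0.25). There the line named first did not pass without a replicate block (edgeR adjusted p = 0.119, 0.753 and 0.114). SYK passed as lower in all 3 lines, and BTK in HG3 and MEC1 but not in JVM3 (log2 -0.08, adjusted p = 0.164). PTPN6 and PLCG2 were lower in 2 lines each, with no difference past the test for PTPN6 in JVM3 (log2 -0.03, adjusted p = 0.666) and PLCG2 in MEC1 (-0.02, 0.707), where the libraries overlapped.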

How the results depend on the processing

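The number of the 10 genes that passed across lines, 2, was 6 with the 12 libraries unsummed and 6 with an added replicate block. All genes called across lines, 784, became 1315 in DESeq2, 2540 with no filter on low counts, 6641 unsummed, 5084 unsummed with the replicate block, and 320 to 1051 when a line or a library was left out (320 to 380 for lines); within JVM3, 4767 became 3166 in DESeq2. Of all junctions called, 998, limma on log ratios called 291, with 0 of the 10 genes' junctions, so the BLNK change of 20.08 points did not pass there; leaving out a line gave 536 to 814, with the BLNK change between 17.95 and 22.82 points. A share over both junctions of the exon, chosen after seeing the data, gave 19.07 points. The cause of these shifts was not tested, apart from fewer samples where a line is left out. Beside the calls it added for BLNK and PIK3CD within JVM3 and HG3 and for the difference of RASGRP3 between lines, the replicate block changed no other call of the 10 genes within lines.

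Differences near 0 changed sign when a line or a library was left out. Across lines, CD79A lay between -0.0089 (without JVM3) and 0.1581, and LYN between -0.1142 (without HG3) and 0.1107 (without MEC1). Within JVM3, LYN lay between -0.0335 and 0.0170, CD79B between -0.0116 and 0.0687, and PTPN6 between -0.0600 and 0.0043. PLCG2 within MEC1 lay between -0.0382 and 0.0019, and PTPN6 in wild-type MEC1 against JVM3 between -0.0772 and 0.0455. Over 1130 alternative values of single genes, 1092 kept their direction and side of the threshold. Junction depth limits SYK's first exons, with at most 126 reads in a column.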
